A study of Mus musculus with 32 samples.

Results

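The genes described here drive or restrain the division cycle of cells. They are 37 genes listed by name: cyclins and cyclin-dependent kinases (CDKs), inhibitors of those kinases, genes of DNA replication and genes of mitosis. The list follows function and was chosen with earlier results of these data known. A probe set naming the gene alone was found for 36 of the 37, out of 18193 named genes on the array; Ccnb1 had none. Each gene was read from the probe set with the highest mean over all arrays. The 36 were 9 cyclins and CDKs, 3 CDK inhibitors, 11 replication genes and 13 mitosis genes.

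RNA of the left ventricle was hybridised to 32 Affymetrix mouse arrays, 1 per mouse. The 8 groups of 4 individual mice combined sex, genotype (wild type, or knockout of oestrogen receptor beta, as labelled) and surgery (transverse aortic constriction, TAC, a constriction of the aorta that raises the load on the ventricle, or a sham operation). All mice were C57Bl6 with an age of 10 weeks in the labels. TAC is stated to have lasted 9 weeks for the knockout TAC mice, and no duration is stated for wild-type TAC mice. Neither the knockout allele nor the cells it affects is described in the labels. The 10 cardiomyocyte markers examined, Myh6 and Tnnt2 among them, all had a mean above the median probe set of the array.

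D-type cyclins with Cdk4 start a division round in response to growth signals, cyclins E and A with Cdk2 take the cell through DNA replication, and cyclins A and B with Cdk1 start mitosis. Inhibitors such as Cdkn1a and Cdkn1b bind these complexes and stop them. Adult cardiomyocytes have largely left the cycle, while fibroblasts, endothelial cells and immune cells of the same wall can still divide. Arrays of 1 group correlated at 0.92 to 0.959 over all probe sets, and the median signal per array ran from 101.6 to 127.8. The targeted gene, Esr2, read 3.6 to 67.7 (median 13) in the 16 wild-type mice and 25.8 to 196.8 (median 107.8) in the 16 mice labelled knockout, which is higher and not lower in the knockouts. Its probes were not placed relative to the deleted part, so that knockout means labelled knockout throughout.

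Whole ventricle was measured, so a larger number of cells holding these RNAs, dividing or not, and more RNA per cell cannot be told apart. Values are linear signals in arbitrary units, and changes are on the log2(signal + 32) scale, which understates the change of genes with low signal. A gene was called when its Benjamini-Hochberg adjusted p over all 18193 genes was under 0.05 in limma.

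Averaged over the 4 strata of sex and genotype, 16 of the 36 genes were higher after TAC, 2 were lower and 18 were not called. Higher calls made up 44.4% of these genes, against 14.3% of all genes tested, and lower calls 5.56%, against 11.2%. The median log2 change of the 36 was 0.29, against -0.01 over all genes, and 28 of the 36 changes were above 0. By role, 6 of 9 cyclins and CDKs rose and 1 fell, 1 of 3 inhibitors rose, 3 of 11 replication genes rose and 1 fell, and 6 of 13 mitosis genes rose. Of the 25 genes at or above the median level of the array (a log2 value of 7.11, which is a signal of 106), 13 were higher and 2 lower. Of the 11 below that level, Aurka, Birc5 and Kif20a were higher. With only genes at or above that level fitted, 14 of the 25 were higher and 2 lower, beside 2583 and 1956 of all 11014 genes. With the mean taken over the 3 strata other than knockout males, 8 genes rose (Aurka, Ccnb2, Ccnd2, Cdc20, Cdk1, Cdkn1a, Mcm5 and Prc1) and 0 fell, while 1452 of all genes were higher and 1159 lower.

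**Figure D1:**
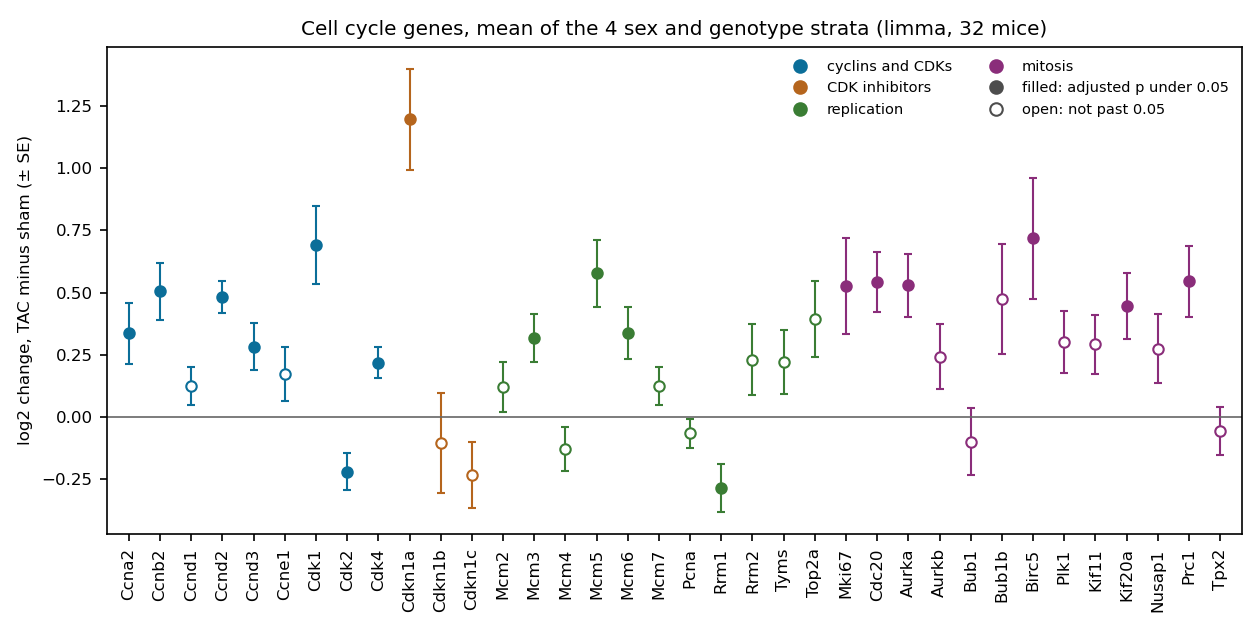
Log2 change (TAC minus sham, vertical axis, bars ± SE) of the 36 genes over the mean of the 4 strata, coloured by role, with filled points for an adjusted p under 0.05. Cdkn1a stands highest at 1.20, followed by Birc5 at 0.72 and Cdk1 at 0.69, while Cdk2 and Rrm1 are the filled points below 0.

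A technical measure moved with surgery and is given here because every count above rests on the same arrays. The beta-actin control of the array is read at the 3-prime and the 5-prime end of its transcript, and the log2 difference between both ends is used as a sign of RNA integrity and labelling. It was lower after TAC in all 4 strata, with a TAC minus sham difference of -0.31 in wild-type and -0.41 in knockout females and of -0.41 in wild-type and -0.36 in knockout males, with no overlap between the 4 TAC and 4 sham mice of any stratum (two-sided exact permutation p = 0.0286 each, the smallest that 4 against 4 allow, adjusted p = 0.0457 over 8 tests). With this difference as a covariate, 1 of the 36 genes (Ccnd2, 0.51) was called higher and 0 lower, while 417 of all genes were higher and 297 lower. Because this control difference separated TAC from sham mice in every stratum, it and surgery cannot be told apart for any of the 36 genes, Ccnd2 included. The other 17 called genes lost their calls in this limma fit. Among them were Cdk1 at 0.74 (adjusted p = 0.232), Cdkn1a at 1.05 (adjusted p = 0.172) and Aurka at 0.69 (adjusted p = 0.144). In the same fit Ccnd3 stood at -0.17 and Kif20a at -0.18, opposite in sign to their changes without the covariate. The matching Gapdh difference was higher after TAC by 0.06 to 0.09 in the 4 strata, and as a covariate it left 12 genes higher and 0 lower, with 1100 of all genes higher and 810 lower.

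Ccnd2, the D-type cyclin with the smallest adjusted p of the 36, read 5279, 5623, 4858 and 5008 in the 4 sham wild-type females and 7174, 6485, 7990.0 and 7870.0 in the 4 TAC wild-type females. Sham wild-type males read 5975, 6788, 6836 and 5513, and TAC wild-type males 8057, 7231, 7205 and 7239. Every TAC mouse lay above every sham mouse of its own stratum in both. Knockout females had 6979, 6562, 5426 and 5695 after sham surgery and 9047, 9317, 9673 and 8184 after TAC, and knockout males had 5204, 6074, 4799 and 5972 and 12239, 6700.3, 7729 and 8127. Here too the groups did not overlap, and the highest value of all 32 was TAC knockout male 1. Across strata, 14 of the 16 TAC mice exceeded the highest of the 16 sham mice. The mean change was 0.48 ± 0.06 (log2 ± SE, adjusted p = 1.36e-06), a 1.40-fold rise. Ccnd2 had 6 other probe sets on the array, with changes of 0.19 to 0.61, 4 of them called higher.

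Ccnd3, another D-type cyclin, ran from 396 to 1422 (median 1167) in the 16 sham mice and from 1037 to 1553 (median 1301) in the 16 TAC mice, and rose by 0.28 ± 0.09 (adjusted p = 0.0254). The low end of the sham range was 1 stratum: knockout male sham mice read 649, 396, 1048 and 1171, and TAC mice of that stratum 1503, 1129, 1449.8 and 1553. Its change was 0.87 in knockout males and between 0.00 and 0.16 in the other 3 strata, and sham and TAC mice overlapped in all 4. Wild-type females read 1422, 1328, 1164 and 1098 after sham surgery and 1214, 1037, 1458 and 1326 after TAC, and wild-type males 1214, 1112, 1087 and 1197 and 1445, 1363, 1178 and 1197. Knockout females read 1113, 1205, 1186 and 1187 and 1254, 1374, 1276 and 1132. Over the 3 strata other than knockout males its change was 0.09 and was not called. Cdk4, the kinase partner of the D-type cyclins, rose by 0.22 ± 0.06 (adjusted p = 0.00917), with 667 to 1009.9 (median 827) in sham and 732 to 1271 (median 923) in TAC mice, with 15 of 16 TAC mice above the sham median. Ccnd1, the remaining D-type cyclin, was not called (0.12 ± 0.08, adjusted p = 0.251). Its other 2 probe sets gave 0.42, which was called higher (adjusted p = 0.00518), and 0.25, which was not, and the mean of all 3 was called higher (0.26, adjusted p = 0.0221).

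Cdk1, the kinase that starts mitosis, read near the median probe set of the array and was uneven between mice. Sham wild-type females read 139, 106, 58.4 and 84 and TAC wild-type females 218, 129, 155 and 95.4, with overlap. Sham wild-type males read 88.8, 50.9, 75.7 and 105 and TAC wild-type males 142, 170.4, 149.7 and 206, with none. In knockout females the sham values were 66.3, 82.4, 248 and 87.6 and the TAC values 180.1, 119.6, 139 and 104. The highest of all 16 sham mice was sham knockout female 3, which exceeded every TAC mouse. Knockout males had 96.2, 112, 90.6 and 11.1 after sham surgery and 225, 131, 205 and 229.8 after TAC, again without overlap. The mean change was 0.69 ± 0.16 (adjusted p = 0.00137), a 1.61-fold rise, and all 16 TAC mice lay above the sham median.

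Ccna2 and Ccnb2, the mitotic cyclins measured, both rose. Ccnb2, a B-type cyclin that binds Cdk1, read 81.5, 111, 56.5 and 60.5 in sham and 162, 129.7, 123 and 176 in TAC wild-type males, with no overlap. Knockout male sham mice had 69, 85.6, 79.3 and 106, and the TAC mice had 248, 92.1, 241 and 177, where TAC mouse 2 lay inside the sham range. In wild-type females the values were 61.2, 129, 92.1 and 119 after sham surgery and 159, 104, 132 and 102 after TAC. Knockout females had 82.2, 107, 168 and 124 and 150.5, 139, 126 and 127. Both female strata overlapped, and the mean over all strata rose by 0.50 ± 0.11 (adjusted p = 0.00119). Ccna2, the cyclin of S phase and early mitosis, rose by 0.34 ± 0.12 (adjusted p = 0.0426), with 97.8 to 258 (median 119) in sham and 112 to 312 (median 162) in TAC mice. Its call was lost in 21 of 32 fits that left out 1 mouse, with adjusted p up to 0.0791 (without wild-type female TAC mouse 1). It was also lost with the mean of all Ccna2 probe sets (0.24, adjusted p = 0.0953) and with the replicate block (adjusted p = 0.0532).

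The kinase and cyclin of the step into S phase did not rise. Cdk2 fell by 0.22 ± 0.07 (adjusted p = 0.0272), with 355 to 551 (median 458) in sham and 267 to 516 (median 393) in TAC mice, and 14 of the 16 TAC mice lay at or below the sham median. Without knockout female TAC mouse 3 or knockout male TAC mouse 4 its adjusted p was 0.0519 and 0.0516, and 1 gene fell in place of 2. Ccne1 was not called (0.17 ± 0.11, adjusted p = 0.264).

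Among the inhibitors, Cdkn1a, which encodes p21 and is a classical target of p53, showed the largest change of the 36 genes. Sham wild-type females read 1755, 382, 421 and 609, where mouse 1 exceeded all 4 TAC mice at 735, 865, 1459.6 and 1039. Sham wild-type males read 445, 289, 353 and 365 and TAC wild-type males 499, 1069, 1150.1 and 878, with no overlap. Knockout females had 426, 776, 494 and 369 after sham surgery and 749, 794, 1989 and 1748 after TAC. Only sham mouse 2 of that stratum reached into the TAC range. Knockout males had 285, 211, 974 and 396 and 1261, 1018, 1466 and 2306, with all 4 TAC mice above all 4 sham mice. The mean rise was 1.20 ± 0.20 (adjusted p = 3.85e-05), 2.29-fold, and the other Cdkn1a probe set gave 1.29.

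The other 2 inhibitors were not called. Cdkn1b, which encodes p27 and holds resting cells out of the cycle, had a change of -0.11 ± 0.20 (adjusted p = 0.757). Its widest group was sham knockout males at 2086, 1916, 522 and 535, against 787, 949, 513 and 791 after TAC. In wild-type females it read 644, 588, 496 and 1481 and 494, 1396, 903 and 635. Wild-type males read 515, 1098, 1564 and 1004 after sham surgery and 761, 949, 1320.4 and 1276 after TAC, and knockout females 799, 709, 1468 and 1317 and 621, 737, 974 and 1416. All 4 strata overlapped. Cdkn1c, which encodes p57, had a change of -0.23 ± 0.13 (adjusted p = 0.215), with 475 to 987 (median 604) in sham and 294 to 905 (median 527) in TAC mice. Its change was below 0 in all 4 strata, at -0.16 in wild-type and -0.19 in knockout females and at -0.32 in wild-type and -0.26 in knockout males, none of them called. Wild-type females read 598, 673, 578 and 586 after sham surgery and 419.5, 699.7, 486 and 593 after TAC, and wild-type males 679, 904, 475 and 686 and 905, 408, 481 and 439.7. Knockout females read 987, 952, 578 and 554 and 568, 836, 749.7 and 482, and knockout males 609, 584, 543 and 795 and 742, 853, 294 and 375. Sham and TAC mice overlapped in each stratum.

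All 6 subunits of the Mcm2-7 helicase, which unwinds DNA at replication origins, were measured, and 3 of them rose. Mcm5 rose most, by 0.58 ± 0.14 (adjusted p = 0.0018), with 100.1 to 319.8 (median 172) in sham and 161 to 459 (median 276) in TAC mice. Sham wild-type females read 134, 261, 141 and 176 and TAC wild-type females 276, 161, 315 and 239.7. The wild-type male values were 168, 218, 159 and 142 after sham surgery and 299, 239.9, 291 and 206 after TAC. Both wild-type strata overlapped. Knockout females had 319.8, 251, 206 and 144 and 412, 405, 273 and 198, and knockout males 115, 100.1, 235 and 243 and 459, 234, 455 and 277. In knockout males TAC mouse 2 lay within the sham range, and the other 3 TAC mice above it. The other Mcm5 probe sets gave 0.29 and 0.04, neither of them called. Mcm6 rose by 0.34 ± 0.10 (adjusted p = 0.0147), with 318 to 522 (median 412) in sham and 333 to 782 (median 539.5) in TAC mice, and in wild-type males from 469, 388, 332 and 388 to 538, 599, 554 and 492 without overlap. The other 3 strata overlapped. Wild-type females read 318, 407, 440.5 and 522 after sham surgery and 782, 393, 609 and 519.7 after TAC, knockout females 428, 337, 484 and 400.0 and 748, 342, 485 and 333, and knockout males 427, 404, 418 and 446 and 541, 388, 730.1 and 620.4. Mcm3 rose by 0.32 ± 0.10 (adjusted p = 0.0131), with 10 of 16 TAC mice above every sham mouse, and its other probe set of opposite sign gave -0.07. With the mean of all its probe sets the Mcm3 change was 0.19 and the call was lost (adjusted p = 0.122). Mcm2 (0.12 ± 0.10, with 333 to 693 (median 555) in sham and 325 to 790.2 (median 613) in TAC mice), Mcm4 (-0.13 ± 0.09, with 355 to 932 (median 626) in sham and 398 to 732 (median 594) in TAC mice) and Mcm7 (0.12 ± 0.08, with 445 to 841 (median 685) in sham and 565 to 954 (median 698) in TAC mice) were not called.

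The other replication genes showed 1 fall and no rise. Rrm1, the large subunit of ribonucleotide reductase, which makes deoxynucleotides, fell by 0.29 ± 0.09 (adjusted p = 0.0239), with 332 to 618 (median 436) in sham and 217 to 497 (median 358) in TAC mice. In knockout males its TAC values of 311, 247, 343 and 337 all lay below the sham values of 384, 388, 503 and 479. A second Rrm1 probe set of nearly the same mean read 0.01 and the lowest read -0.25, neither of them called. The small subunit gene Rrm2 had a change of 0.23 ± 0.14 (adjusted p = 0.264), with 55.6 to 198 (median 134) in sham and 84.2 to 304 (median 152) in TAC mice. Tyms, which makes thymidylate, had 0.22 ± 0.13 (adjusted p = 0.222), with 13.6 to 89.7 (median 52.5) in sham and 35.7 to 115 (median 68.1) in TAC mice. Neither was called. Pcna, the sliding clamp of the DNA polymerases, had -0.07 ± 0.06 (adjusted p = 0.436), with 2981 to 4285 (median 3380.1) in sham and 2595 to 4281 (median 3104) in TAC mice. Top2a, which untangles DNA before chromosomes separate, had a change of 0.39 ± 0.15 (adjusted p = 0.0585), the smallest adjusted p of the uncalled genes. Its 4 TAC wild-type males at 159.5, 213, 224 and 133 all exceeded the sham wild-type males at 85, 114, 118 and 70.3. It was called in 8 of 32 fits that left out 1 mouse, the lowest adjusted p being 0.0216 without knockout male TAC mouse 2.

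Mki67 encodes Ki-67, the standard stain for cells in cycle. Sham wild-type females read 129.6, 169, 67.7 and 171 and TAC wild-type females 371, 101, 281 and 148. Sham wild-type males read 63.1, 85.7, 85.6 and 111 and TAC wild-type males 136, 191, 203 and 179.6. Only the wild-type males separated, and TAC wild-type female 1 was the highest of the 32 mice. Knockout females had 90, 60.3, 210.5 and 129.5 after sham surgery and 242, 129, 92.3 and 129 after TAC. Knockout males had 104, 203, 181 and 34.4 and 219.7, 60.7, 299.7 and 186. Both knockout strata overlapped over most of their range. The mean rise was 0.53 ± 0.19 (adjusted p = 0.0445), with 13 of 16 TAC mice above the sham median. The call was lost in 20 of 32 fits that left out 1 mouse, with adjusted p up to 0.0818 (without wild-type female TAC mouse 1).

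Cdc20 activates the anaphase-promoting complex, the ubiquitin ligase that lets chromosomes part. It read 169, 152, 92.5 and 239 in sham and 348, 165, 263 and 166 in TAC wild-type females, with overlap. In wild-type males it read 122, 155, 155 and 105 and 244, 209, 229 and 226, a clean separation. Knockout females had 171, 229, 267 and 184 and 357, 255, 259.6 and 190.1. Knockout males had 174, 188, 208 and 198 and 422, 187, 462 and 431, where TAC mice 1, 3 and 4 lay clear of every sham mouse and mouse 2 inside the sham range. The mean rise was 0.54 ± 0.12 (adjusted p = 0.00112). A second Cdc20 probe set of nearly the same mean gave 0.27 and the lowest gave 0.04, neither of them called.

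The other 4 mitosis genes that rose act on the spindle or in cytokinesis. Prc1, which bundles the microtubules of the central spindle, rose by 0.55 ± 0.14 (adjusted p = 0.00447), from 87, 91.8, 76.7 and 62.5 to 136, 141, 149 and 179 in wild-type males and from 71.5, 98.3, 105 and 93 to 134, 152, 117 and 106 in knockout females, neither with overlap. In wild-type females it read 86.4, 92.4, 63.1 and 132 after sham surgery and 319.7, 60.5, 124 and 108 after TAC, and in knockout males 84.2, 139, 111 and 74.7 and 257, 83.8, 271 and 174. The last 2 strata overlapped. Aurka, the Aurora A kinase of the spindle poles, rose by 0.53 ± 0.13 (adjusted p = 0.00207), with 12 of 16 TAC mice above every sham mouse, while 1 other Aurka probe set gave -0.01. Its signals were low, 14.5 to 80.9 (median 61) in sham and 63.1 to 109 (median 89.1) in TAC mice. Wild-type females read 65.1, 77.7, 22.4 and 55 after sham surgery and 85.3, 67.9, 85.1 and 102 after TAC, wild-type males 21.8, 56.8, 80.9 and 71.1 and 99.5, 92.9, 63.9 and 99.8, and knockout females 72.5, 24.3, 67.6 and 35.7 and 101, 82, 63.1 and 66.4. These 3 strata overlapped, and only knockout males separated. Birc5, which encodes survivin of the chromosomal passenger complex, rose by 0.72 ± 0.24 (adjusted p = 0.028). It ran from 6 to 114 (median 62) in sham and from 7 to 212 (median 127) in TAC mice. Sham wild-type females read 85.3, 6, 89.4 and 114 and TAC wild-type females 212, 38.5, 113 and 50.2, with sham mouse 2 near 0. The groups did not overlap in wild-type males, at 87.3, 12.5, 34.7 and 6.4 and 155, 91.8, 123 and 119.9. Knockout females had 101, 96.8, 114 and 9.6 and 159, 138, 132 and 61.9, and knockout males 50.7, 50.5, 58.7 and 65.2 and 139, 7, 208 and 186. Single mice near 0 stood in both sham and TAC groups. Leaving out sham wild-type female 2, sham knockout female 4, sham wild-type male 4, TAC wild-type female 1 or TAC knockout male 3 or 4 took its adjusted p to between 0.0502 and 0.0553, and a pseudocount of 1 took it to 0.0596. Kif20a, a kinesin of cytokinesis, rose by 0.45 ± 0.13 (adjusted p = 0.0124), from 39.7, 23, 60.2 and 51.6 to 127, 76.1, 122 and 107 in knockout males, the stratum where the groups did not overlap. Wild-type females read 59.3, 27.5, 61.1 and 86.7 after sham surgery and 145, 63.6, 54.4 and 77.3 after TAC, wild-type males 52, 24.1, 24.4 and 65.8 and 113, 30.7, 63.1 and 101, and knockout females 67.4, 76.1, 61.1 and 58.6 and 92.3, 46.8, 84.5 and 46.9. The Kif20a change in knockout females was -0.002, and over the 3 strata other than knockout males it was 0.30 and not called (adjusted p = 0.218).

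The remaining 7 mitosis genes were not called, and all but Tpx2 had a mean below the median level. The kinase genes Plk1 (0.30 ± 0.12, adjusted p = 0.0753), Aurkb (0.24 ± 0.13) and Bub1b (0.47 ± 0.22), the spindle motor gene Kif11 (0.29 ± 0.12, adjusted p = 0.0737) and Nusap1 (0.27 ± 0.14) had changes above 0. The checkpoint kinase gene Bub1 (-0.10 ± 0.13) and the spindle assembly gene Tpx2 (-0.06 ± 0.10) had changes below 0. Plk1 was called in 2 of 32 fits that left out 1 mouse, Bub1b in 2 and Kif11 in 4. Bub1 read 2.6 to 62 (median 25.8) in sham and 2.4 to 38.7 (median 20.1) in TAC mice, its other probe set gave 0.31, and all 3 other Tpx2 probe sets gave changes above 0 (0.02 to 0.21). Over the 28 genes with more than 1 probe set, 38 of 53 other probe sets had the sign of the one used. Of 27 for called genes, 7 were called in the same direction and 0 in the opposite one. Of the 7, 4 were for Ccnd2 and 1 each for Cdkn1a, Mcm6 and Prc1.

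Promoters of cell cycle genes are known for a few short words bound by shared factors, and they are shown here for 6 of the genes that rose. The words searched, on both strands of the 250 bases before the start in RefSeq's promoters of build GRCm38.p6, were CCAAT, the cell cycle homology region CHR (TTTGAA or TTCGAA) and an E2F word (TTTCCCGC, TTTGGCGC, TTTCGCGC or TTCCCGCC). Capitals mark matches, and overlapping matches run together. The sequences end 1 base before the outermost start of the gene, 200 bases long except for Mki67 (129) and Mcm5 (159). They lie on the minus strand for Cdk1 (chr10:69352913-69353112), Ccnb2 (chr9:70421555-70421754), Mki67 (chr7:135716451-135716579), Cdc20 (chr4:118437344-118437543) and Mcm6 (chr1:128359706-128359905), and on the plus strand for Mcm5 (chr8:75109309-75109467).
Cdk1: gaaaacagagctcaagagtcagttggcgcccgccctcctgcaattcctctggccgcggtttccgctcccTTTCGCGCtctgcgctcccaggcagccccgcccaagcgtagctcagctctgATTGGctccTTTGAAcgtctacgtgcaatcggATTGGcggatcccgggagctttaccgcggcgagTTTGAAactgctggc
Ccnb2: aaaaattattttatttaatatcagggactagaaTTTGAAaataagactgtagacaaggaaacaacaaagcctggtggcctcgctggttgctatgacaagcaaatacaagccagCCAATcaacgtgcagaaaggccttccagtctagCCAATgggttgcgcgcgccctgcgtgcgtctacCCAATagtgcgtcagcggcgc
Mki67: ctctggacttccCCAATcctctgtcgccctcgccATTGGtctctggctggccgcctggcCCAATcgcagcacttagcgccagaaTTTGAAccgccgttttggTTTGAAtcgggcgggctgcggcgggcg
Cdc20: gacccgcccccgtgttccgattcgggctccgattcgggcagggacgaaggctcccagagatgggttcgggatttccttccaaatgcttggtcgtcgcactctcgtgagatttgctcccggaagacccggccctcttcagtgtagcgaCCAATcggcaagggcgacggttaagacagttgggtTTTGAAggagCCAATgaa
Mcm5: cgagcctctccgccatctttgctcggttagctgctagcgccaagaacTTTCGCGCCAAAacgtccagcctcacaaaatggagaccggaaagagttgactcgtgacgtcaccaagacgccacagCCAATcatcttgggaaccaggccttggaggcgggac
Mcm6: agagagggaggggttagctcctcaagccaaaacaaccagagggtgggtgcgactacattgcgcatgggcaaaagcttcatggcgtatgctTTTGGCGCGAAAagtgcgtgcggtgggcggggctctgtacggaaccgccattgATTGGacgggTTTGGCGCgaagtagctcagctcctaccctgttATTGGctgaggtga

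A promoter was found for 29 of the 37 genes. CCAAT stood in 23 of them (79.3%), against 37.5% of the 27025 genes in the table. A CHR word stood in 10 (34.5%, against 19.6%) and an E2F word in 6 (20.7%, against 3.36%). The mitotic genes Cdk1, Ccnb2, Mki67 and Cdc20 above hold both CCAAT and CHR (Cdk1 also an E2F word), and Mcm5 and Mcm6 hold CCAAT with E2F words. By role, an E2F word was found in 4 of 10 replication promoters and 0 of 10 mitosis promoters, and a CHR word in 3 and 5. Among genes called higher 10 of 13 held CCAAT, 5 a CHR word and 3 an E2F word, against 12, 5 and 3 of the 15 other measured genes. These shares describe the letters of the window and not binding by a factor.

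Within single strata, each with 4 mice a side, few genes passed. In wild-type females 1 of 36 was higher (Ccnd2, 0.50 ± 0.13, adjusted p = 0.0383) and 0 lower, against 1.12% and 0.616% of all genes. In wild-type males limma called 0 of 36 in either direction, against 1.56% and 1.17% of all genes, with a smallest adjusted p of 0.0768. At an unadjusted p under 0.05 stood 13 of 36 and 2741 of all genes in that stratum. In knockout females 1 was higher (Ccnd2 again, 0.56 ± 0.13, adjusted p = 0.0134), against 1.92%, and 0 lower, against 1%. In knockout males 9 were higher, 25% of the 36 against 10.9% of all genes, and 0 lower, against 6.78%. The median change of the 36 was 0.22, 0.35, 0.14 and 0.47 in the same order. Arrays centred on their median changed the split of all calls from 283 higher and 212 lower to 296 and 118 in wild-type males, and from 350 and 182 to 484 and 91 in knockout females.

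The 9 genes called in knockout males were Cdkn1a (1.79 ± 0.40), Cdk1 (1.19 ± 0.32), Mcm5 (0.94 ± 0.27), Kif20a (0.90 ± 0.27), Ccnd3 (0.87 ± 0.19), Ccnb2 (0.86 ± 0.23), Cdc20 (0.79 ± 0.24), Aurka (0.72 ± 0.25) and Ccnd2 (0.62 ± 0.13). Their Aurka signals were 65.9, 67.5, 49.5 and 14.5 in sham and 109, 93.6, 98.3 and 84.2 in TAC mice, without overlap. Without TAC mouse 1 of this stratum 5 genes were called (Ccnb2, Ccnd2, Ccnd3, Cdk1 and Cdkn1a), and without TAC mouse 2, 11. Counts over all genes are not given for any fit that left out 1 mouse, so these counts have no share beside them. Without sham mouse 4 the change of Cdk1 was 0.78 and that of Aurka 0.47 (adjusted p = 0.183), and without sham mouse 2 that of Ccnd3 was 0.58. The Aurka call was lost in 19 of 32 such fits. Cdc20 lost its call without TAC mouse 1, 3 or 4 or sham mouse 1 or 2, Mcm5 without TAC mouse 1 or 3 or sham mouse 1 or 2, and Kif20a without TAC mouse 1 or sham mouse 2.

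These strata calls use 1 spread per gene shared by all 8 groups. With the spread taken from the 2 groups compared alone, wild-type males had 6 genes higher (Birc5, Cdc20, Cdk1, Cdkn1a, Mki67 and Prc1), knockout males 1 (Cdkn1a), wild-type females 1 and knockout females 0. Over all 18193 genes this gave 523 higher and 405 lower in wild-type males, 468 and 206 in knockout males (from 1982 and 1234), 278 and 197 in wild-type females and 155 and 67 in knockout females. With arrays weighted by their residuals, wild-type males had 7 (Ccnb2, Cdc20, Cdk1, Cdkn1a, Mki67, Prc1 and Top2a), while the calls over all genes rose from 283 higher and 212 lower to 1058 and 968. Ccnd2 lost its call in wild-type females without any 1 of the 4 sham mice or of TAC mice 1, 3 and 4 (adjusted p up to 0.143), and in knockout females without TAC mouse 3, sham mouse 3 or sham mouse 4 (up to 0.0666). In wild-type males 1 gene was called without knockout male TAC mouse 2 (Ccnb2) or without TAC mouse 1 of their own stratum (Cdkn1a).

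**Figure D2:**
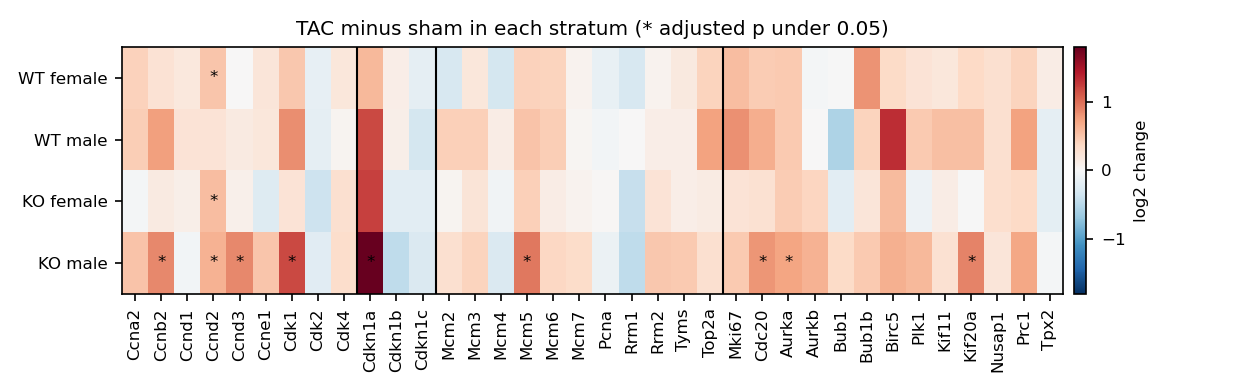
Log2 change (TAC minus sham, colour scale) of the 36 genes in each stratum of 4 sham and 4 TAC mice, with asterisks at an adjusted p under 0.05 and vertical lines between roles. Asterisks stand at Ccnd2 in 3 strata and at 9 genes in knockout males, and Cdkn1a is above 0 throughout.

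A plain count of genes whose 4 TAC mice all lay above all 4 sham mice gave another order of strata. It was 12 of 36 in wild-type males, where 6.72% of all genes did so: Ccna2, Ccnb2, Ccnd2, Cdk1, Cdkn1a, Mcm3, Mcm6, Top2a, Mki67, Cdc20, Birc5 and Prc1. It was 6 of 36 in knockout males (Ccna2, Ccnd2, Cdk1, Cdkn1a, Aurka and Kif20a), against 8.15%. Knockout females had 3 (Ccnd2, Cdk4 and Prc1), against 4.06%, and wild-type females 1 (Ccnd2), against 5.58%. Changes were above 0 in all 4 strata for 21 of the 36 genes (58.3%), against 19.8% of all genes, and below 0 in all 4 for Cdk2 and Cdkn1c.

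**Figure D3:**
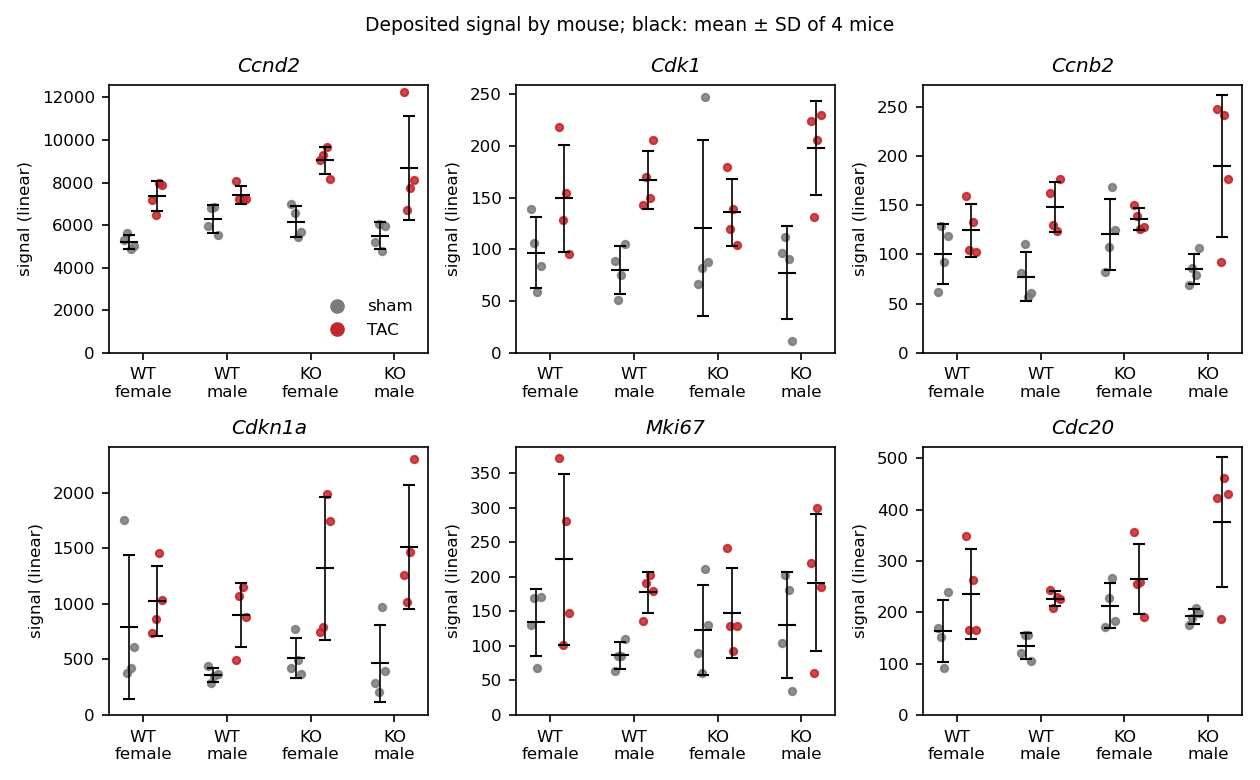
Deposited signal (linear, vertical axes from 0) of 6 cell cycle genes in each mouse, by sex and genotype, with grey points for sham, red for TAC and black marks for the mean ± SD of 4 mice. Ccnd2 separates sham from TAC in all 4 strata, while the other 5 genes overlap in wild-type females and in knockout females.

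Whether the response itself differed between sexes was tested directly. Over both genotypes, the response of females minus that of males passed for 0 of the 36 genes in limma, as for 0% of all 18193, with 4 of 36 and 769 of all genes at an unadjusted p under 0.05. The estimate was below 0, a smaller response in females, for 26 of 36 genes, with a median of -0.15 against -0.01 over all genes. The 4 were Ccnb2 (-0.59 ± 0.23, 95% interval -1.05 to -0.12), Mcm2 (-0.48 ± 0.20), Ccnd3 (-0.46 ± 0.19) and Cdk1 (-0.65 ± 0.32), each with an adjusted p of 0.934. For Ccnd2 the interval was -0.17 to 0.36, for Cdkn1a -1.41 to 0.24 and for Mki67 -1.04 to 0.54, wide enough to hold differences as large as the mean responses of Cdkn1a and Mki67. Within knockouts alone the estimate was below 0 for 29 of 36 genes, with a median of -0.24 against -0.05 over all genes. Within wild types it was below 0 for 25, with a median of -0.07 against 0.02. In limma 0 of the 36 were called in either. At an unadjusted p under 0.05 stood 5 of 36 and 1197 of all genes in knockouts, and 1 and 548 in wild types.

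With genotype taken as labelled, the response of knockouts minus that of wild types also passed for 0 of 36 genes in limma, as for 0% of all genes, with 1 of 36 at an unadjusted p under 0.05 (Ccnd3, 0.40 ± 0.19, adjusted p = 0.555) and 1584 of all genes. With arrays weighted by their residuals 0 of the 36 passed, but 129 of all genes were higher and 44 lower (192 and 66 between the males). Estimates were above 0 for 17 genes and below 0 for 19. The interval was -0.05 to 0.48 for Ccnd2, -0.59 to 0.70 for Cdk1 and -0.21 to 1.45 for Cdkn1a. Knockout males had 9 calls and wild-type males 0, but the difference in response between them passed for 0 of 36 genes in limma. At an unadjusted p under 0.05 stood 3 of 36 and 1923 of all genes. For Ccnd3, whose difference between the males was largest among the 36 by p (0.71 ± 0.27), the adjusted p was 0.413.

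Sham mice were also compared with each other, between sexes and between genotypes. Between sham females and sham males 0 of 36 genes passed in limma, against 0.044% of all genes. At an unadjusted p under 0.05 stood 1 of 36 and 1062 of all genes. The 1 was Ccnd3, higher in females by 0.37 ± 0.13 (adjusted p = 0.805). Between sham knockouts and sham wild types 0 passed, against 0.478% of all genes, with 3 of 36 and 2310 of all genes at an unadjusted p under 0.05. The 3 were, as knockout minus wild type, Ccnd3 (-0.34 ± 0.13), Cdc20 (0.40 ± 0.17) and Mcm4 (0.31 ± 0.13), with adjusted p between 0.256 and 0.309. The low Ccnd3 of sham knockout males 1 and 2 enters both Ccnd3 values. Of the 36 sham estimates, 28 were higher in females than in males, with a median of 0.10 against 0.02 over all genes. For knockout minus wild type 25 were above 0, with a median of 0.09 against -0.02 over all genes.

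Mice of 1 group differed from each other in many of these genes at once. Averaged over the 13 mitosis genes, TAC knockout males stood at 7.37, 6.60, 7.47 and 7.23 (mean log2 signal), and mouse 2 was the lowest of its group in 9 of the 13 genes. The 4 sham knockout males stood at 6.76, 6.64, 6.75 and 6.45, so that TAC mouse 2 fell inside their range. TAC wild-type females stood at 7.51, 6.80, 6.94 and 6.84, with mouse 1 highest in 9 of 13 genes, and sham wild-type females at 6.76, 6.60, 6.47 and 6.96. Sham knockout female 3 was highest of its group in 9 of 13 genes, at 7.10 against 6.58 to 6.68 in the other 3, and TAC knockout females stood at 7.26, 6.94, 6.81 and 6.76. Wild-type males stood at 6.61, 6.57, 6.63 and 6.53 after sham surgery and 7.02, 6.87, 7.06 and 7.10 after TAC. Their 11 replication genes averaged 8.27 to 8.55 in sham and 8.69 to 8.74 in TAC mice. The 9 cyclins and CDKs separated TAC from sham in both male strata, at 8.85, 8.83, 8.90 and 8.83 against 9.52, 9.15, 9.44 and 9.35 in knockout males.

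**Figure D4:**
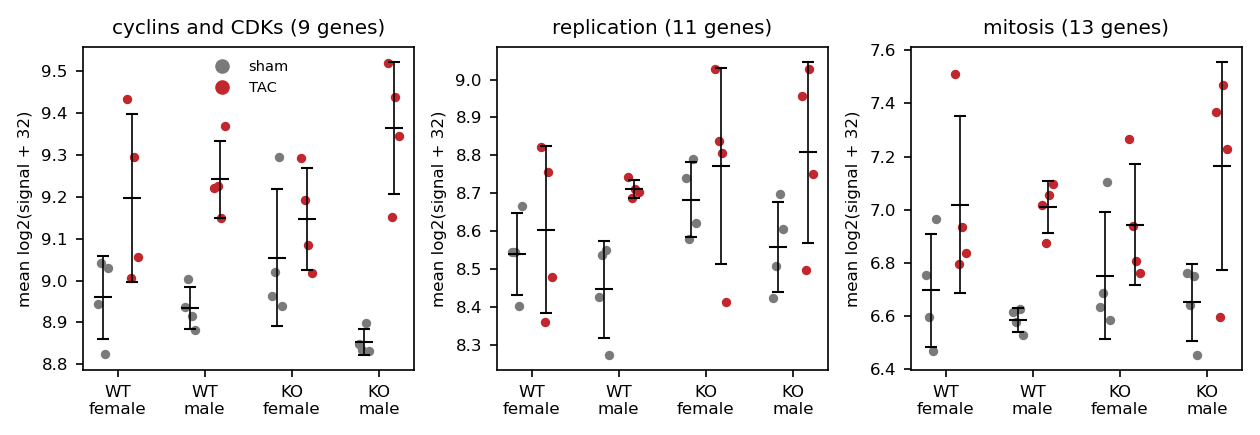
Mean log2(signal + 32) over the genes of a role (vertical axis, not starting at 0) in each mouse, by sex and genotype, grey for sham and red for TAC, with black marks for the mean ± SD of 4 mice. Sham and TAC wild-type males do not overlap in any of the 3 panels, and 1 TAC knockout male lies with the sham mice for replication and mitosis.

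The rest of the cell cycle machinery was read from 8 lists made by function, also with earlier results of these data known. Of 183 further genes measured on them, 30 were higher (16.4%, against 14.3% of all genes) and 22 lower (12.02%, against 11.2%), with a median change of 0.02. Higher calls were 6 of 19 among other cyclins, CDKs and their regulators, 5 of 22 among spindle motors and cytokinesis genes, 5 of 16 in the anaphase-promoting complex, 3 of 15 among p53 targets and growth arrest genes, 3 of 22 among RB, E2F and related transcription complexes, 3 of 32 in the kinetochore and spindle checkpoint, 4 of 37 in origin licensing and the replication fork and 1 of 20 among cohesin, condensin and separase. Lower calls were, in the same order, 2, 1, 2, 3, 1, 2, 6 and 5. Single mice moved several of these counts by more than 1.5 times: for the other cyclins and CDKs 3 were higher without TAC knockout female 2, TAC knockout male 1, sham knockout male 1 or TAC wild-type female 1.

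On the lists of regulators, Myc and Cdkn2b rose by more than 1 log2 unit. Myc, a transcription factor that drives growth and division, rose by 1.22 ± 0.16 (adjusted p = 1.17e-06), with 30.8 to 181 (median 90.7) in sham and 134 to 495 (median 237) in TAC mice. Cdkn2b, an inhibitor of Cdk4 (p15), rose by 1.07 ± 0.17, with 12 to 113 (median 54.6) in sham and 71.4 to 239.5 (median 147) in TAC mice. The Cdk1-binding protein gene Cks2 rose by 0.70 ± 0.11 and the Cdk1-inhibiting kinase gene Pkmyt1 by 0.49 ± 0.18 (adjusted p = 0.0487). The other Cdk1-inhibiting kinase gene, Wee1, fell by 0.52 ± 0.12, Ccnh, the cyclin of the CDK-activating kinase, by 0.38 ± 0.08 and Tfdp2, a partner of E2F factors, by 0.54 ± 0.08, while Lin37 of the DREAM complex rose by 0.31 ± 0.09 and E2f6, a repressive E2F factor, by 0.16 ± 0.05. The other Pkmyt1 probe set gave 0.04. The growth arrest genes Btg2 (0.97 ± 0.19), Gadd45g (0.83 ± 0.15) and Gadd45b (0.42 ± 0.13) rose, and Mdm4, which restrains p53, (-0.55 ± 0.15), Ccng1 (-0.29 ± 0.06) and Gas1 (-0.25 ± 0.07) fell.

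Lists for the later phases held calls in both directions. Ube2c, the ubiquitin-conjugating partner of the anaphase-promoting complex, rose by 0.69 ± 0.16 (adjusted p = 0.00159), the spindle genes Kif22 by 0.59 ± 0.12, Tacc3 by 0.54 ± 0.16 and Ckap2 by 0.53 ± 0.15, and the centromere genes Cenpk by 0.60 ± 0.16, Cenpt by 0.45 ± 0.09 and Cenpa by 0.23 ± 0.06. Both other Cenpk probe sets gave changes just below 0 (-0.03 and -0.02), and those of Cenpa -0.16 and 0.01. The ligase subunit gene Anapc7 rose by 0.30 ± 0.08 and the ligase activator gene Fzr1 by 0.29 ± 0.10, while the subunit genes Anapc13 (-0.27 ± 0.06) and Anapc4 (-0.18 ± 0.06) fell. Sgo2a, which protects centromeric cohesion, fell by 0.63 ± 0.12 (adjusted p = 0.000174) and the spindle gene Ckap5 by 0.35 ± 0.11. Separase (Espl1) rose by 0.37 ± 0.09, while the cohesin genes Stag1 (-0.44 ± 0.15) and Smc3 (-0.41 ± 0.11) and the cohesin regulator gene Pds5b (-0.45 ± 0.12) fell. In replication Tk1 (0.57 ± 0.19), Uhrf1 (0.54 ± 0.14) and Cdc6 (0.43 ± 0.12) rose and Fen1 (-0.62 ± 0.19), Orc5 (-0.39 ± 0.12) and Rpa3 (-0.36 ± 0.08) fell, while the other Fen1 probe set gave 0.08. Cenpf, a kinetochore gene, fell by 2.14 ± 0.13, with 782 to 1706 (median 1123) in sham and 137 to 429 (median 223) in TAC mice, without overlap between the 16 sham and 16 TAC mice. Its other 2 probe sets gave -0.62 and -0.02.

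Markers of other cell types moved in the same arrays, where 14.3% of all genes were higher and 11.2% lower. Of 12 macrophage and monocyte markers 9 rose (median change 0.51) and 0 fell. Their summed signal ran from 14244 to 20075 in sham and 19780.0 to 37512 in TAC wild-type males, and from 14839 to 24014 after sham surgery and 21883 to 43081 in knockout males. In wild-type females it ran from 16267 to 19749 and 19205 to 35397, and in knockout females from 14698 to 18420.0 and 19429.5 to 28222, the latter without overlap. Of 10 fibroblast markers 6 rose, the collagen genes Col1a1 and Col1a2 among them, and 0 fell. Not called were Pdgfra (-0.21), Dcn (0.19), Lum (0.25) and Dpt (0.03). Sums over all 10 ran from 33817 to 40148 in sham and 48390.2 to 67810.5 in TAC knockout females. In wild-type females they ran from 42562 to 47521 after sham surgery and 49168 to 77818 after TAC. In wild-type males they ran from 36692 to 44661 and 36318 to 76050.5, and in knockout males from 30073 to 46693 and 42789 to 90258.

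Of 10 cardiomyocyte markers 3 fell (Tnni3, Ryr2 and Pln) and 0 rose, of 10 endothelial markers 2 rose and 1 fell, shares of 20% and 10% that lie near those over all genes, and of 8 smooth muscle and pericyte markers 4 rose and 3 fell. Of 8 lymphocyte markers 1 rose (Ptprc, which all white blood cells carry), and Cd3e, Cd3g, Cd4, Cd79a, Cd79b and Ms4a1 had means below the median level of the array. In limma 0 of 7 neutrophil and 0 of 3 erythroid markers were called, with 1 of each at an unadjusted p under 0.05. No marker on any list was at 0. The part of these cell types in the changes of the cell cycle genes was not tested.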

How the data were processed

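Each of the 32 mice gave 1 Affymetrix Mouse Genome 430 2.0 array of left ventricle. The deposited values are linear signal intensities made by the authors with MAS 5.0, per the submitters' processing notes. Every array had the same trimmed mean, 500, tested on the files, so that no further scaling was applied. Of 45101 probe sets, 64 were controls, 34945 carried 1 gene symbol, 932 several and 9160 none. Each gene was read from its probe set with the highest mean over all arrays, with no filter on low signal. Values were taken as log2(signal + 32) and fitted as 8 group means in limma 3.58.1 (R 4.3.3; lmFit, contrasts, eBayes with a trend), with Benjamini-Hochberg adjustment over 18193 genes. Python 3.11.15 was used for the rest. The procedure was tested on simulated data.

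The members and lists were chosen with earlier results of these data known. Every member is reported with its change. Values in full are given for the 12 called members with the largest change, members called in a single stratum, Mki67 and the 3 CDK inhibitors, and up to 3 called genes a direction for each pathway list. Alternatives were the pseudocount, a level filter, median centring, quantile normalization, 3-prime over 5-prime covariates, array weights, only the groups compared, other probe sets, a replicate block and leaving out each mouse. The mean of 3 strata was an alternative chosen after seeing the data. Replicate numbers name mice and were not used as pairs. The number of arrays limits the precision.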

Additional observations from a re-analysis of the deposited data

Results flagged for a closer look

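For the 15 genes described in full, single mice standing apart from the other 3 of their group were sought by Dixon's criterion for 4 samples (the gap to the nearest mouse as a share of the group's range, on the log2 scale). It marked 6 of 120 groups, and chance alone marks about 1 in 20. Birc5 read 6 in sham wild-type female 2, where the nearest mouse read 85.3. It also read 9.6 in sham knockout female 4, with the nearest at 96.8. Cdk1 read 11.1 in sham knockout male 4, with the nearest at 90.6. Cdc20 read 187.2 in TAC knockout male 2, with the nearest at 422.5. Aurka read 63.9 in TAC wild-type male 3, with the nearest at 92.9. Ccnd2 read 8057 in TAC wild-type male 1, above the nearest at 7239.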

How the results depend on the processing

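Of the counts of cell cycle genes higher after TAC over the 4 strata, 16 became 1 with the beta-actin covariate and 8 over the 3 strata other than knockout males, a setting chosen after seeing the data. The count lower, 2, became 1 with arrays centred on their median and 0 with the Gapdh covariate, the beta-actin covariate or the 3 strata. In wild-type females 1 became 0 with centring, either covariate or no trend in the variance. Over all genes the higher calls of that stratum went from 204 to 197 (centring), 99 (Gapdh), 55 (beta-actin) and 176 (no trend). In wild-type males 0 became 1 with a filter at the median level, 7 with array weights and 6 with only the groups compared. Over all genes the higher calls of that stratum went from 283 to 342 (of 11014 genes), 1058 and 523. In knockout females 1 became 0 with the beta-actin covariate or only the groups compared, and in knockout males 9 became 1 under each of these. Over all genes the higher calls became 61 and 155 in knockout females (from 350) and 466 and 468 in knockout males (from 1982). On the pathway lists, 30 higher became 19 (Gapdh), 1 (beta-actin) and 13 (3 strata), and 22 lower became 10, 2 and 12. Over all genes 2607 higher became 1100, 417 and 1452, and 2043 lower became 810, 297 and 1159, in the same order. Leaving out 1 mouse at a time gave 13 to 19 higher and 1 to 2 lower over the strata. Higher calls were 0 to 1 in wild-type females, 0 to 1 in wild-type males, 0 to 1 in knockout females and 5 to 11 in knockout males. On the pathway lists 24 to 38 were higher and 20 to 29 lower. Counts over all genes are not given for the fits that left out 1 mouse. Quantile normalization, both other pseudocounts and the mean of all probe sets kept every count within 1.5 times, though single calls were lost (Birc5 with a pseudocount of 1, Ccna2 and Mcm3 with the mean of all probe sets) or gained (Top2a, Plk1 and Kif11 with quantile normalization, Ccnd1 with the mean of all probe sets). The counts of these genes for response differences by sex and genotype and for sham mice were 0 in all fits run, while array weights called the genotype difference in response for 129 higher and 44 lower of all genes, from 0. Correlations of same-numbered deviations ran from -0.15 to 0.34, and a fit with the replicate block gave 16 higher and 2 lower, and 8 in knockout males. Over all genes that fit gave 2581 higher and 1990 lower, and 1926 higher and 1174 lower in knockout males. Some changes took the opposite sign: with the beta-actin covariate Ccnd3 (-0.17), Ccne1 (-0.01), Cdkn1b (0.65), Rrm2 (-0.19), Aurkb (-0.063), Plk1 (-0.18), Kif20a (-0.18) and Nusap1 (-0.065), with the Gapdh covariate Cdkn1b (0.025), Mcm2 (-0.001) and Mcm4 (0.017), with the mean of all probe sets Tyms (-0.030), Bub1 (0.11) and Tpx2 (0.086), over the 3 strata Cdkn1b (0.012), and on other probe sets Mcm3 (-0.067), Mcm4 (0.055), Mcm7 (-0.0056), Rrm1 (0.014), Tyms (-0.14 and -0.30), Aurka (-0.011), Bub1 (0.31), Bub1b (-0.17), Kif11 (-0.021 and -0.12), Nusap1 (-0.16) and Tpx2 (0.17, 0.020 and 0.21). The cause of these shifts was not tested. With 4 mice a group and many of these genes near or below the median signal of the array, changes within 1 stratum are less precise than their mean.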
